A study of Homo sapiens with 16 samples.

Results

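The zinc finger genes of 2 gene clusters on chromosome 19 were examined in 4 clones of MDA-MB-231, a human triple-negative breast cancer cell line. A list of 44 symbols named them, 22 in the cluster at 19p13.2 (ZNF627 to ZNF791) and 22 in the cluster at 19q13.31 (ZNF576 to ZNF180, with ZNF45). Of these, 39 were among the 14857 genes of the deposited table, 20 at 19p13.2 and 19 at 19q13.31. ZNF625, ZNF709, ZNF233, ZNF285 and ZNF229 had no row and are not analysed here. The members were thus selected on symbol, position and a mean level high enough for the table, whose lowest gene averaged 9.68 normalized counts. The lowest listed member, ZNF564, averaged 13.97. The list was drawn up with earlier results of these data known, so counts over it describe these genes and carry no test of the list. On GRCh38 the members spanned 11559374 to 12640098 at 19p13.2, which is 1081 kb, and 43596392 to 44500524 at 19q13.31, which is 904.1 kb.

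The clones TTP_H3 and TTP_E11 carried tristetraprolin (TTP), an RNA-binding protein that speeds the decay of mRNAs with AU-rich elements. Their controls were clones EV_B and EV_A with an empty vector. The line of all 4 clones is labelled tet-off, a design that shuts off the transgene while doxycycline is present. All were kept in G418 and hygromycin B. Doxycycline (2 µg/mL) is stated for maintenance of TTP cells only, so this history goes with the arm, and before experiments it was washed out with the selection agents for 24 h or longer. Each arm is 2 clones of 1 cell line with 4 libraries per clone, so the p-values carry the variation among cultures but little of that among clones. In bulk RNA, fewer cells with a transcript and less transcript per cell cannot be told apart.

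Most members encode Krüppel-associated box (KRAB) zinc finger proteins. In these proteins an array of C2H2 zinc fingers binds DNA, and the KRAB domain recruits the corepressor TRIM28 (KAP1), which brings the histone H3 lysine methyltransferase SETDB1 and HP1 proteins to silence the bound sequence, often a transposable element. The genes arose by repeated local duplication, so that neighbours on chromosome 19 are close relatives. Human chromosome 19 holds many such clusters.

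Several facts of the whole series bear on the values. Reads on the listed genes ranged between 14380767 and 22066098 per library. Titles and library names disagree in 7 of the 8 libraries named TTP, whose titles say EV, and the library names were followed here. ZFP36, the gene that encodes TTP, stood at 14370 ± 811 normalized counts in TTP_H3 and 10480 ± 337 in TTP_E11. It stood at 222.1 ± 8.8 in EV_B and 258.6 ± 26.3 in EV_A (SD, n = 4 each). The arms did not overlap, while the 2 EV clones overlapped each other. Replicate 3 of TTP_H3 and replicate 4 of EV_B stood apart from the other libraries of their clones, with a chi-square per degree of freedom of 9.25 to 12.5 and 5.87 to 6.35 against at most 3.63 in pairs without them. The mesenchymal markers of this line (VIM, CD44, EGFR, AXL, MSN, CAV1 and FOSL1) were all listed, with a summed level of 102900 to 107300 in TTP libraries and 127900 to 131800 in EV libraries. By clone means, VIM, CD44, CAV1 and AXL were lower in both TTP clones. EGFR was higher (6902 in TTP_H3 and 6870 in TTP_E11, 6063 in EV_B and 6099 in EV_A), and MSN and FOSL1 did not separate the arms. The endothelial list (2 of 4 genes listed, KDR and ESAM, but not PECAM1 or CDH5) summed to 352.8 to 445.9 in TTP libraries and 180.5 to 216.0 in EV libraries. The embryonic kidney list (1 of 2 listed, GATA2, but not PAX2) was at 220.5 to 326.5 in TTP libraries and 116.0 to 174.0 in EV libraries. Both were thus higher in the same arm as most members. The luminal list (3 of 7 listed, without ESR1, PGR, CDH1 and FOXA1) summed to 2850 to 3407 in TTP libraries and 2483 to 2863 in EV libraries, which barely overlapped. ERBB2 made up most of it, with clone means of 2714 in TTP_H3, 2862 in TTP_E11, 2173 in EV_B and 2307 in EV_A. In the same order EPCAM averaged 236.6, 247.2, 264.9 and 299.8, and GATA3 193.9, 192.6, 194.1 and 219.8, so neither was higher with TTP. The fibroblast list (4 of 5 listed, without PDGFRA) summed to 410.0 to 679.3 in TTP libraries and 349.4 to 661.2 in EV libraries. The part of these lists in the results was not tested.

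Members of both clusters were mostly higher in the TTP clones. At 19p13.2, 14 of 20 members passed the threshold upward and 1, ZNF69, downward, beside 35.4% of all 14857 genes upward and 34.6% downward. At 19q13.31, 14 of 19 passed upward and 0 downward, with 0 also lower by edgeR and by DESeq2, and 0 of the 19 had a negative estimate, at any p. The test was limma on log2(normalized count + 1) over all genes, with Benjamini-Hochberg adjusted p-values and a threshold of 0.05, and log2 changes below are TTP minus EV on that scale unless another contrast is named. The median log2 change was 0.41 at 19p13.2 and 0.28 at 19q13.31, beside 0.001 over all genes. The changes ran between -0.23 and 1.48 at 19p13.2 and between 0.003 and 0.66 at 19q13.31. A rise of at least 1 on the log2 scale was seen in 2 members at 19p13.2 and in 0 at 19q13.31. That is 5.13% of the members of both clusters, near the 4.68% of all genes. A rise of at least 0.5 was seen in 8 and in 5, which is 33.3% of both clusters, beside 12.5% of all genes. The reads were also summed per clone and tested with edgeR in place of limma, so that 2 TTP clones were set against 2 EV clones. There 8 and 5 members passed upward, all of them among those above, beside 14.8% of all genes. ZNF69 did not pass, beside 14.6% of all genes that passed downward.

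**Figure D1:**
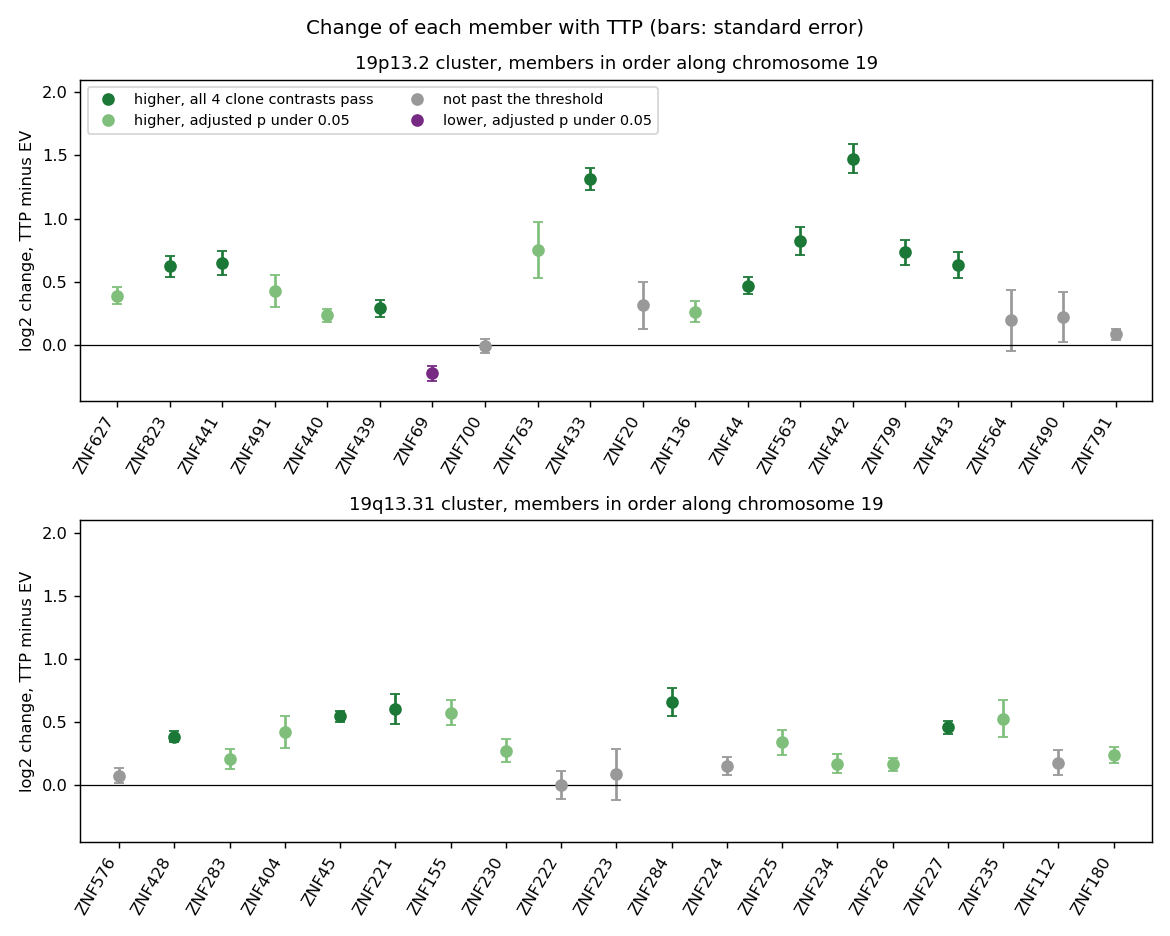
Log2 change (TTP minus EV, y axis) with its standard error for each listed member, in order along chromosome 19 (x axis), in the 19p13.2 cluster above and the 19q13.31 cluster below. Dark green marks members that passed in all 4 clone contrasts, light green other members that passed upward, purple ZNF69, which passed downward, and grey those that did not pass. ZNF433 (1.32) and ZNF442 (1.48) stand highest, and the 5 neighbours ZNF44, ZNF563, ZNF442, ZNF799 and ZNF443 are all dark green.

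A member was called concordant where each TTP clone differed from each EV clone, in the same direction and past the threshold every time. Concordant and higher were 9 members at 19p13.2 and 5 at 19q13.31, beside 19% of all genes. These were ZNF823, ZNF441, ZNF439, ZNF433, ZNF44, ZNF563, ZNF442, ZNF799 and ZNF443 at 19p13.2, and ZNF428, ZNF45, ZNF221, ZNF284 and ZNF227 at 19q13.31. None was concordant and lower, beside 19.5% of all genes. By edgeR and by DESeq2 the concordant and lower count was also 0 in both clusters. When each library was left out in turn, 8 of the 9 and 4 of the 5 stayed concordant in all 16 fits, and the exceptions were ZNF439 and ZNF284. In 11 of the 39 members (28.2%), 7 at 19p13.2 and 4 at 19q13.31, every TTP library was above every EV library, beside 15.6% of all genes.

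Sequence features that the choice of members did not use also separated the clusters. The start of the KRAB A box was searched in the annotated coding sequences, with a pattern that ends in either a tryptophan or a leucine codon. It ended in tryptophan in 14 of 20 members at 19p13.2 and 2 of 19 at 19q13.31, ZNF283 and ZNF404. It ended in leucine in 0 of 20 and 14 of 19. The pattern was not found in ZNF491, ZNF763, ZNF799, ZNF443, ZNF564 and ZNF490 at 19p13.2 or in ZNF576, ZNF428 and ZNF180 at 19q13.31. A box that differs from the pattern at 1 set residue is missed, so members without a match may still encode a KRAB domain. Predicted C2H2 fingers numbered 6 to 18 (median 13.5) at 19p13.2 and 1 to 18 (median 14) at 19q13.31. The matching coding stretches of members with large and small changes are given, with the last codon of the pattern in capitals.
ZNF442: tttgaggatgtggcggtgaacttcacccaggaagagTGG
ZNF433: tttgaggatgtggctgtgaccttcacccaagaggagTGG
ZNF69: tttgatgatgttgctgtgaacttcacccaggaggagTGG
ZNF700: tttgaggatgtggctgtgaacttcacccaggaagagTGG
ZNF284: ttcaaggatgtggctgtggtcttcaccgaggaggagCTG
ZNF45: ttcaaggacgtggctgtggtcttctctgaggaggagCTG
ZNF224: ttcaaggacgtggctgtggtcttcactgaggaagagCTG
ZNF222: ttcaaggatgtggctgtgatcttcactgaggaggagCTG
Over all members with the pattern, pairs differed at a median of 3 of 39 bases within 19p13.2, 3 within 19q13.31 and 10 between the clusters. The stretches printed are from members that rose (ZNF442, ZNF433, ZNF284, ZNF45) and members that did not pass upward (ZNF69, ZNF700, ZNF224, ZNF222). Any relation of the stretch to the change was not tested.

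Promoters separated the clusters in the same way. RefSeq promoter sequences on GRCh38.p14, 300 bases with 250 before the start, were matched by symbol for 19 of 20 members at 19p13.2 and 16 of 19 at 19q13.31, with ZNF763, ZNF221, ZNF155 and ZNF223 having no entry. Letters were chosen after these promoters had been read, and both strands were searched. CCAATCAG, a form of the CCAAT box, was in 17 of 19 promoters (89.5%) at 19p13.2 and 1 of 16 (6.25%) at 19q13.31, beside 18% of other ZNF promoters on chromosome 19 and 5.59% of 10386 promoters of listed genes. GGGCGG, a GC box, was in 18 of 19 (94.7%) and 6 of 16 (37.5%), beside 70.4% of all. CGGAAGTG, which holds the GGAA core of ETS factors, was in 0 of 19 and 12 of 16 (75%), beside 8.19% of all. TTCTGGGAA was in 0 of 19 and 12 of 16 (75%), beside 1.18% of all. The members are duplicates of each other and the promoters of ZNF490 and ZNF791 share bases, so the promoters are not independent, and a match is not a binding site. CGGAAGTG and GGGCGG overlap in ZNF45. The 150 bases before the RefSeq start are given on the strand of the gene for members that rose and members that did not pass upward, with these letters, on either strand, in capitals. The letters of a match on the other strand read as the reverse complement, CACTTCCG for CGGAAGTG.
ZNF442, chr19:12365684-12365833, minus strand: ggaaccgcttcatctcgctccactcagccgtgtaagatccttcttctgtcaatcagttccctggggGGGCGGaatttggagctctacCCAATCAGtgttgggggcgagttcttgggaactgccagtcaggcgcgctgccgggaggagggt
ZNF433, chr19:12035680-12035829, minus strand: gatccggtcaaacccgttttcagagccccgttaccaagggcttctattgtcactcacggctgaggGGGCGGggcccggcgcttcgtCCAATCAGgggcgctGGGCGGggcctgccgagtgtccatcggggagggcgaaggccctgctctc
ZNF69, chr19:11887632-11887781, plus strand: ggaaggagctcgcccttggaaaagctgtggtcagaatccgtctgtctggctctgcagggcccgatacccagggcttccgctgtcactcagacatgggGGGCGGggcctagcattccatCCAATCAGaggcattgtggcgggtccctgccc
ZNF700, chr19:11924957-11925106, plus strand: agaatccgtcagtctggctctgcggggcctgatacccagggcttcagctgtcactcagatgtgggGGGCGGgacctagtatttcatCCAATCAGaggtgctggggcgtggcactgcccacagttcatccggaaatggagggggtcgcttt
ZNF284, chr19:44072009-44072158, plus strand: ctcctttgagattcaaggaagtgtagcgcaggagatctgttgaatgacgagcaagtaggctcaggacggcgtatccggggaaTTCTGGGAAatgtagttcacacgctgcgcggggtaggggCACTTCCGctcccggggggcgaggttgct
ZNF45, chr19:43935283-43935432, minus strand: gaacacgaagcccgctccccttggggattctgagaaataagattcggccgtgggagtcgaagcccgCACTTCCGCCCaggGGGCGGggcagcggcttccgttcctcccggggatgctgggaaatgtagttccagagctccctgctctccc
ZNF222, chr19:44025229-44025378, plus strand: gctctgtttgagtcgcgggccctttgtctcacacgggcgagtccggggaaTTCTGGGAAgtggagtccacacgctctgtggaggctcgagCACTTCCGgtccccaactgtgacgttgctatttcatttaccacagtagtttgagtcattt
ZNF442 and ZNF433, with the largest changes, hold CCAATCAG and GGGCGG, and so do ZNF69, which was lower, and ZNF700, which did not pass. ZNF284 and ZNF222 both hold TTCTGGGAA followed by CGGAAGTG on the other strand, and their log2 changes were 0.66 and 0.003. Any relation of these letters to the changes was not tested.

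ZNF442 (ENSG00000198342, chromosome 19, 12345949 to 12365905, minus strand, GRCh38), a KRAB zinc finger gene with 14 predicted fingers, changed most. It had 88.82, 103.1, 95.76 and 91.17 normalized counts in TTP_H3 and 63.94, 92.2, 73.28 and 70.05 in TTP_E11, against 23.11, 37.06, 31.39 and 31.03 in EV_B and 27.74, 33.42, 26.85 and 27.51 in EV_A. The arms did not overlap, and every TTP_H3 library lay above 3 of the 4 libraries of TTP_E11. The log2 change was 1.48 ± 0.12 (SE, adjusted p = 5.55e-13), a 2.78-fold difference.

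ZNF433 (ENSG00000197647, chromosome 19, 12014732 to 12035741, minus strand), with 18 predicted fingers, was next. It had 155.4, 140.9, 171.6 and 178.7 normalized counts in TTP_H3 and 137.9, 140.3, 149.2 and 134.6 in TTP_E11, against 62.72, 55.06, 58.03 and 72.4 in EV_B and 54.27, 57.55, 69.28 and 52.37 in EV_A. The arms again did not overlap, and the clones of each arm overlapped each other. The log2 change was 1.32 ± 0.09 (SE, adjusted p = 8.03e-15). ZNF433 lies against the antisense gene ZNF433-AS1, which was called higher by 0.38, and no source used here gives the strand setting of the counting, so reads of the pair may not be separate.

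ZNF563 averaged 78.71 ± 10.6 normalized counts in TTP_H3 and 69.53 ± 6.95 in TTP_E11, against 43.51 ± 5.91 in EV_B and 39.71 ± 5.96 in EV_A, with no overlap of the arms (log2 change 0.82, adjusted p = 8.34e-08). It lies between ZNF44 and ZNF442, and these 3 genes with ZNF799 and ZNF443 form a run of 5 listed members in a row that were all concordant. Their changes were 0.47 for ZNF44, 0.82 for ZNF563, 1.48 for ZNF442, 0.73 for ZNF799 and 0.63 for ZNF443. All 5 lie on the minus strand. Of the 10 minus-strand members at 19p13.2, 7 were concordant, and of the 10 plus-strand members 2 were. This split by strand was chosen after the values were seen and has no test. At 19q13.31 concordant members numbered 2 of 6 on the minus strand and 3 of 13 on the plus strand.

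ZNF763 passed upward at a low level. It had 23.21, 17.18, 18.95 and 24.37 normalized counts in TTP_H3 and 15.05, 30.41, 16.09 and 17.51 in TTP_E11, against 18.71, 11.65, 7.611 and 9.403 in EV_B and 6.031, 12.07, 19.05 and 12.43 in EV_A. The arms overlapped between 15.05 and 19.05. Its log2 change of 0.75 ± 0.22 (SE) passed over the arms (adjusted p = 0.00363) but not in TTP_E11 against EV_A (adjusted p = 0.0647) or against EV_B (adjusted p = 0.0541).

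The standard error of the log2 change followed the level. It ran between 0.0426 and 0.241 at 19p13.2 and between 0.0424 and 0.203 at 19q13.31. At 19p13.2, ZNF763, ZNF20, ZNF564 and ZNF490 averaged under 30 normalized counts, and only ZNF763 of these passed. ZNF223 was the single member under 30 at 19q13.31, and it did not pass.

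The telomeric end of the 19p13.2 cluster also rose. ZNF441 averaged 115.6 ± 11.2 normalized counts in TTP_H3 and 127.5 ± 17.1 in TTP_E11, against 80.87 ± 9.18 in EV_B and 73.72 ± 10.1 in EV_A (log2 change 0.65, adjusted p = 2.07e-07). ZNF823 averaged 164.9 ± 23.1 normalized counts in TTP_H3 and 164.1 ± 8.32 in TTP_E11, against 110.3 ± 11.2 in EV_B and 103.4 ± 14.7 in EV_A (log2 change 0.62, adjusted p = 4.59e-08). ZNF627 averaged 156.6 ± 8.95 normalized counts in TTP_H3 and 177.6 ± 12.1 in TTP_E11, against 115.7 ± 10.6 in EV_B and 140.2 ± 9.57 in EV_A (log2 change 0.39, adjusted p = 9.26e-06). In all 3 of these genes every TTP library was above every EV library, but ZNF627 was not concordant. The other members that passed upward did so by 0.43 in ZNF491, 0.23 in ZNF440, 0.29 in ZNF439 and 0.26 in ZNF136 on the log2 scale, and in these the arms overlapped.

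Not all members of the 19p13.2 cluster rose. ZNF69 (13 predicted fingers, 11887784 to 11914329) was the only one called lower. It had 164.5, 181.0, 184.5 and 176.0 normalized counts in TTP_H3 and 201.9, 179.5, 204.6 and 194.5 in TTP_E11, against 189.3, 206.5, 199.8 and 171.1 in EV_B and 236.4, 235.8, 260.7 and 252.1 in EV_A. EV_A alone stood high, and EV_B overlapped both TTP clones. The log2 change was -0.23 ± 0.06 (SE, adjusted p = 0.00127), but against EV_B alone it was -0.04 (adjusted p = 0.615).

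ZNF700 lies next to ZNF69 (11925068 to 11950773) and shares the 18-finger array length of ZNF433. It averaged 245.6 ± 17.1 normalized counts in TTP_H3 and 245.6 ± 15.1 in TTP_E11, against 240.8 ± 13 in EV_B and 253.2 ± 11 in EV_A, and all 4 clones overlapped. The log2 change was -0.01 ± 0.06 (SE, adjusted p = 0.895), and its sign turned to 0.03 with upper-quartile scaling. That scaling also moved the median change of all genes, from 0.001 to 0.042. ZNF791, the last of the cluster toward the centromere, had 514.7 ± 31.3 in TTP_H3 and 517.5 ± 16.1 in TTP_E11, against 496.0 ± 31.3 in EV_B and 479.4 ± 21.9 in EV_A, a log2 difference of 0.08 ± 0.04 (SE, adjusted p = 0.0861). It overlaps ZNF490 on the other strand, which had 20.49 ± 3.36 in TTP_H3, 22.65 ± 1.78 in TTP_E11, 16.35 ± 6.48 in EV_B and 22.72 ± 6.26 in EV_A (adjusted p = 0.337). ZNF564 had 14.3 ± 3.47 in TTP_H3, 14.58 ± 1.6 in TTP_E11, 11.85 ± 5.35 in EV_B and 15.16 ± 5.94 in EV_A (adjusted p = 0.482).

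Among the 19q13.31 members, ZNF284 (ENSG00000186026, chromosome 19, 44072144 to 44089613, plus strand), with 11 predicted fingers, had the largest change. It had 86.8, 81.33, 77.81 and 71.31 normalized counts in TTP_H3 and 109.1, 82.4, 91.15 and 81.11 in TTP_E11, against 41.81, 62.47, 51.37 and 45.14 in EV_B and 43.42, 66.84, 64.08 and 55.03 in EV_A. The arms did not overlap, although the lowest TTP_H3 library lay close to the highest EV_A library. The log2 change was 0.66 ± 0.11 (SE, adjusted p = 2.85e-06).

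ZNF45 (ENSG00000124459, 43912629 to 43935278, minus strand) gave the most precise of the larger changes. It had 579.3, 524.6, 566.6 and 558.8 normalized counts in TTP_H3 and 625.7, 617.0, 616.6 and 599.1 in TTP_E11, against 415.9, 419.3, 390.1 and 451.4 in EV_B and 419.7, 390.8, 359.4 and 355.9 in EV_A. No TTP library came within the EV range, and TTP_E11 lay wholly above TTP_H3. The log2 change was 0.55 ± 0.04 (SE, adjusted p = 5.97e-13).

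ZNF221 and ZNF155 are neighbours with related coding sequences. ZNF221 averaged 83.39 ± 11.8 in TTP_H3 and 89.82 ± 15.9 in TTP_E11, against 58.18 ± 15.6 in EV_B and 56.0 ± 8.71 in EV_A (log2 change 0.60, adjusted p = 3.77e-05). ZNF155 averaged 102.8 ± 11.3 in TTP_H3 and 117.3 ± 14.5 in TTP_E11, against 63.95 ± 10.4 in EV_B and 85.1 ± 16 in EV_A (log2 change 0.58, adjusted p = 5.78e-06). ZNF221 passed in all 4 clone contrasts. ZNF155 did not pass in TTP_H3 against EV_A (adjusted p = 0.0823).

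ZNF428 codes for a short protein with 1 predicted finger and no KRAB pattern, and it had the highest level per kb of exon of all members (347.1 normalized counts per kb, mean of 16 libraries). It averaged 719.4 ± 35.7 normalized counts in TTP_H3 and 698.7 ± 46.7 in TTP_E11, against 560.6 ± 31.5 in EV_B and 524.6 ± 33 in EV_A, with no overlap (log2 change 0.39, adjusted p = 1.11e-09). Next in level per kb were ZNF45 with 112.3 and ZNF576 with 72.64 at 19q13.31, and ZNF791 with 75.56, ZNF700 with 74.2 and ZNF69 with 69.05 at 19p13.2. The median per kb was 26.28 at 19p13.2 and 26.44 at 19q13.31.

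Further along the cluster, ZNF227 averaged 294.1 ± 10.8 normalized counts in TTP_H3 and 315.9 ± 13.5 in TTP_E11, against 219.6 ± 12.5 in EV_B and 223.8 ± 15.3 in EV_A (log2 change 0.46, adjusted p = 3.23e-09), and its arms did not overlap. ZNF235 averaged 34.32 ± 8.49 normalized counts in TTP_H3 and 41.49 ± 8.16 in TTP_E11, against 21.19 ± 2.55 in EV_B and 30.47 ± 1.73 in EV_A (log2 change 0.53, adjusted p = 0.00165), with the lowest level per kb of the cluster and EV_B below EV_A. ZNF404 averaged 54.51 ± 10.2 normalized counts in TTP_H3 and 48.05 ± 7.65 in TTP_E11, against 39.04 ± 4.54 in EV_B and 36.67 ± 5.64 in EV_A (log2 change 0.42, adjusted p = 0.00377). The arms overlapped in ZNF235 and in ZNF404. ZNF235 overlaps ZNF227 on the other strand, so reads of this pair may not be separate. Smaller changes that passed were 0.21 in ZNF283, 0.28 in ZNF230, 0.34 in ZNF225, 0.17 in ZNF234, 0.17 in ZNF226 and 0.24 in ZNF180, all with overlapping arms, and ZNF283 and ZNF234 lost the call in at least 1 of the fits that left out 1 library. ZNF112 stood at 0.18 and did not pass (adjusted p = 0.104).

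ZNF222 did not pass and was the member closest to 0 change. It had 48.45, 74.46, 90.78 and 85.76 normalized counts in TTP_H3 and 70.21, 76.51, 75.96 and 66.36 in TTP_E11, against 64.92, 78.36, 79.91 and 66.76 in EV_B and 71.16, 79.83, 71.01 and 68.34 in EV_A. All clones overlapped, and TTP_H3 spanned the whole range. Its log2 change was 0.003 ± 0.11 (SE, adjusted p = 0.981). ZNF223 averaged 17.42 ± 6.65 in TTP_H3, 29.53 ± 10.1 in TTP_E11, 17.83 ± 6.71 in EV_B and 24.73 ± 3.97 in EV_A (log2 0.09, adjusted p = 0.716). ZNF576, which has 4 predicted fingers and no KRAB pattern, averaged 280.6 ± 22.3 in TTP_H3, 239.6 ± 19.8 in TTP_E11, 251.8 ± 25.2 in EV_B and 239.4 ± 10.2 in EV_A (log2 0.08, adjusted p = 0.244).

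**Figure D2:**
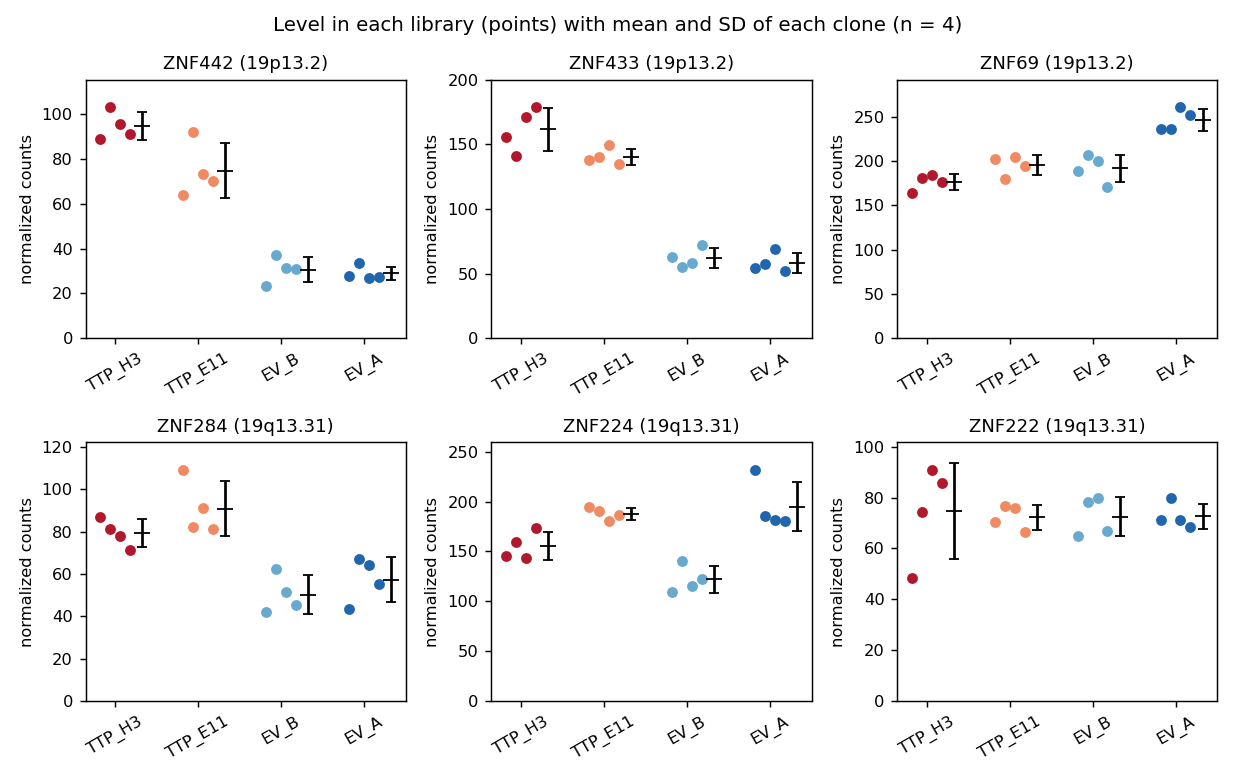
Normalized counts (y axis, from 0) of 6 members in each library, grouped by clone (x axis) in the order TTP_H3, TTP_E11, EV_B and EV_A, with replicates 1 to 4 from left to right and the mean and SD of each clone beside its points. The arms are apart in ZNF442, ZNF433 and ZNF284, EV_A alone is high in ZNF69, EV_B alone is low in ZNF224, and ZNF222 overlaps in all 4 clones.

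The EV clones differed from each other in 4 members of each cluster. EV_B was lower than EV_A in 4 of the 19 members at 19q13.31 and higher in 0, beside 16.6% of all genes lower and 20.2% higher. The count of higher members was 0 by edgeR and by DESeq2 too, and 1 (ZNF45) at an unadjusted p under 0.05. No share of all genes is given for these settings. The 4 lower members were ZNF224, ZNF155, ZNF230 and ZNF235, and by edgeR and DESeq2 the first 3 of these. Without replicate 4 of EV_B, which stood apart, 1 member at 19q13.31 was lower. Without both libraries that stood apart 4 were, ZNF224 again but with ZNF112, ZNF223 and ZNF234. At 19p13.2, 2 members were lower (ZNF627 and ZNF69) and 2 higher (ZNF20 and ZNF799). The median log2 difference EV_B minus EV_A was -0.16 at 19q13.31 and -0.004 at 19p13.2, beside 0.005 over all genes. The difference between the clusters was not tested.

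ZNF224, a transcriptional repressor known to act on the aldolase A promoter, showed the clearest difference between the EV clones. It had 145.3, 159.2, 143.6 and 173.3 normalized counts in TTP_H3 and 194.3, 190.3, 180.5 and 186.2 in TTP_E11, against 108.9, 140.8, 115.1 and 122.2 in EV_B and 231.6, 185.7, 181.9 and 180.2 in EV_A. EV_B was wholly below the other 3 clones, TTP_E11 lay within the range of EV_A, and TTP_H3 lay between. EV_B minus EV_A was -0.67 ± 0.10 on the log2 scale (SE, adjusted p = 3.82e-06). Over the arms the log2 change was 0.15 and did not pass (adjusted p = 0.0576), while edgeR gave 0.0459 as its adjusted p. It was 0.49 against EV_B alone (adjusted p = 1.27e-05) and -0.18 against EV_A alone (adjusted p = 0.0665), so the choice of control clone turned its direction.

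ZNF20 showed the same dependence at 19p13.2. It averaged 25.6 ± 5.11 in TTP_H3 and 25.96 ± 6.18 in TTP_E11, against 26.31 ± 4.71 in EV_B and 16.64 ± 6 in EV_A. EV_A alone was low. EV_B minus EV_A was 0.70 ± 0.26 (SE, adjusted p = 0.0356) and did not pass by edgeR or DESeq2. The change over the arms was 0.31 (adjusted p = 0.134), with 0.66 against EV_A alone (adjusted p = 0.0111) and -0.04 against EV_B alone (adjusted p = 0.901).

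Each TTP clone was then set against each EV clone. In TTP_H3 against EV_B, 14 members at 19p13.2 and 11 at 19q13.31 were higher and 0 lower, beside 29.8% of all genes higher and 29.7% lower. In TTP_H3 against EV_A, 12 and 8 were higher and 1 in each cluster lower (ZNF69 and ZNF224), beside 32% higher and 31.9% lower. In TTP_E11 against EV_B, 12 and 15 were higher and 0 lower, beside 29.9% higher and 29.5% lower. In TTP_E11 against EV_A, 12 and 9 were higher, with ZNF69 lower, beside 31.8% higher and 31.3% lower. Where 0 members were lower, 0 were lower at an unadjusted p under 0.05 as well, a threshold for which no share of all genes is given. Contrasts that share a clone are not independent. At 19p13.2 each gave 12 or 14 higher members, whereas at 19q13.31 there were 11 and 15 against EV_B and 8 and 9 against EV_A.

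Between the TTP clones 0 members passed in either cluster, beside 6.35% of all genes higher in TTP_H3 and 5.32% lower. EdgeR and DESeq2 also gave 0. At an unadjusted p under 0.05 there were 2 members at 19p13.2, ZNF440 and ZNF442, and 5 at 19q13.31, ZNF223, ZNF224, ZNF225, ZNF45 and ZNF576. No share of all genes is given at that threshold, so these counts cannot be called high or low. The largest difference was that of ZNF223, -0.74 ± 0.29 (SE, adjusted p = 0.0914), followed by -0.38 ± 0.14 in ZNF225 (adjusted p = 0.078) and 0.35 ± 0.17 in ZNF442 (adjusted p = 0.183). ZNF225 averaged 91.7 ± 3.65 in TTP_H3, 121.2 ± 22.1 in TTP_E11, 76.22 ± 14.7 in EV_B and 90.95 ± 9.41 in EV_A. The median difference TTP_H3 minus TTP_E11 was -0.14 at 19q13.31, where 14 of 19 estimates were negative, and -0.006 at 19p13.2. Without the 2 libraries that stood apart, ZNF440, ZNF223 and ZNF225 passed as lower in TTP_H3, and no share of all genes is given for that fit. A p that misses the threshold does not show that the TTP clones were alike.

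**Figure D3:**
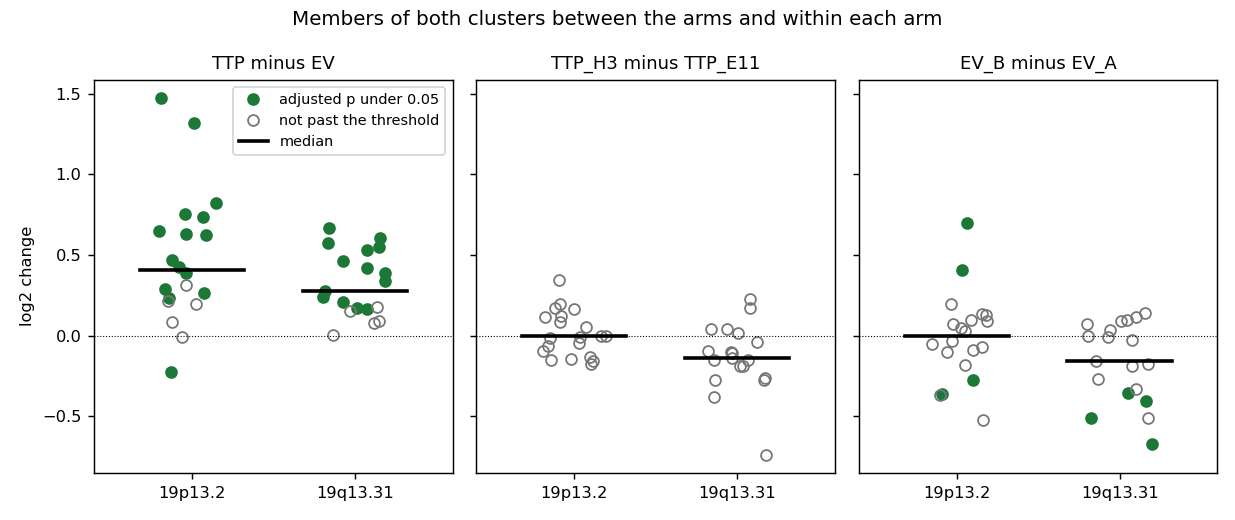
Log2 change (y axis) of each listed member by cluster (x axis), for TTP minus EV, TTP_H3 minus TTP_E11 and EV_B minus EV_A. Filled green points passed an adjusted p of 0.05, open points did not, and the bar is the median (0.41 and 0.28 between the arms, -0.006 and -0.14 between the TTP clones, -0.004 and -0.16 between the EV clones, 19p13.2 named first).

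The level of each cluster in a library was summarized as the median, over its members, of the log2 deviation from the member's mean of 16 libraries. At 19p13.2 this was 0.164 ± 0.061 in TTP_H3 and 0.205 ± 0.088 in TTP_E11, against -0.196 ± 0.045 in EV_B and -0.175 ± 0.051 in EV_A (SD, n = 4). At 19q13.31 it was 0.096 ± 0.097 in TTP_H3 and 0.216 ± 0.048 in TTP_E11, against -0.213 ± 0.040 in EV_B and -0.081 ± 0.052 in EV_A. The arms did not overlap in either cluster, but at 19q13.31 they nearly met, at 0.009 in replicate 1 of TTP_H3 and -0.007 in replicate 2 of EV_A. The medians of all genes were 0.003 to 0.006 in every library. Scaling by a size factor per library brings these medians near 0, so they are no separate check. Replicate 3 of TTP_H3, one of the libraries that stood apart, was the highest of its clone in both clusters (0.248 and 0.229). Without both such libraries the median change over the members was 0.36 at 19p13.2 and 0.26 at 19q13.31, with 14 and 15 members higher.

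**Figure D4:**
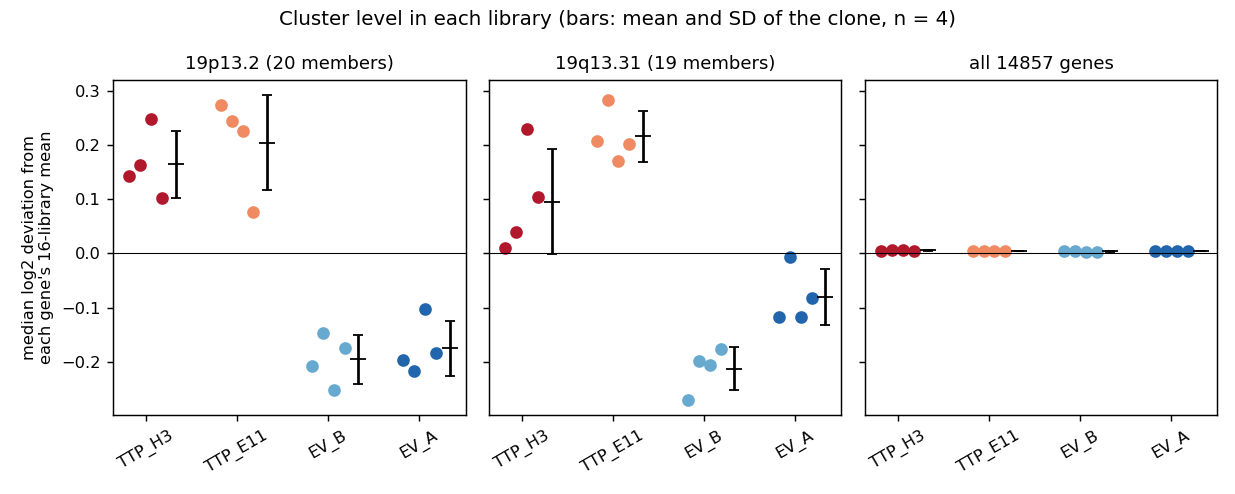
Median log2 deviation of the members from their mean of 16 libraries (y axis) in each library, by clone (x axis), for the 19p13.2 cluster, the 19q13.31 cluster and all 14857 genes. Points are replicates 1 to 4 from left to right, and bars are the mean and SD of a clone. In both clusters the TTP libraries lie above the EV libraries, and at 19q13.31 EV_B lies below EV_A and most of TTP_H3 below TTP_E11.

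The clusters were next set beside other genes with a ZNF symbol and beside their neighbours. The ZNF lists were taken by symbol alone, so they can also hold antisense genes and pseudogenes. Of 186 other ZNF genes on chromosome 19 outside the spans, 117 (62.9%) were higher and 21 lower, with a median log2 change of 0.28. On other chromosomes 124 of 241 ZNF genes (51.5%) were higher and 39 lower, with a median of 0.18. For the members of both clusters together these values were 28 of 39 (71.8%), 1 and 0.34. Differences between these lists were not tested. In the 19p13.2 span, 5 further genes with a ZNF symbol were listed and 4 passed upward. Among these 4 were the antisense gene ZNF433-AS1, and ZNF887P and ZNF788, whose GENCODE symbols (ZNF887P and ZNF788P) mark pseudogenes. The most abundant of the 5, ZNF788, overlaps ZNF20 on the other strand. It had 738.6 ± 61.8 in TTP_H3 and 691.9 ± 41.6 in TTP_E11, against 511.3 ± 24.9 in EV_B and 503.2 ± 15.8 in EV_A.

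Genes without a ZNF or ZFP symbol also lie in the spans. At 19p13.2 these were 5 genes, 3 of them higher and 0 lower, with a median log2 change of 0.51. All but HNRNPA1P10 are clone-named models, and the median level of the 5 was 28.93 normalized counts. AC012618.3 overlaps ZNF44, AC020951.1 overlaps ZNF439, and AC008543.1 spans ZNF887P. At 19q13.31 there were 7, of which 3 were higher and 3 lower. The higher ones were CADM4 and 2 clone-named models at low levels. These were AC006213.2 (mean 17.56), which overlaps ZNF404, and AC006213.4 (mean 12.74), which overlaps ZNF155. Models that overlap members are not a comparison separate from the members. CADM4, a cell adhesion gene between ZNF428 and ZNF283, had 383.7 ± 7.67 in TTP_H3 and 443.1 ± 25.1 in TTP_E11, against 209.3 ± 23.9 in EV_B and 179.9 ± 12 in EV_A (log2 1.09). PLAUR, the urokinase receptor gene next to CADM4, had 660.8 ± 40.0 in TTP_H3 and 566 ± 12.5 in TTP_E11, against 1068 ± 52.2 in EV_B and 1132 ± 42.4 in EV_A (log2 -0.85). Within 1 Mb outside the spans, 27 of 55 genes around 19p13.2 were higher and 16 lower (median 0.11), and 27 of 41 around 19q13.31 were higher and 5 lower (median 0.38).

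**Figure D5:**
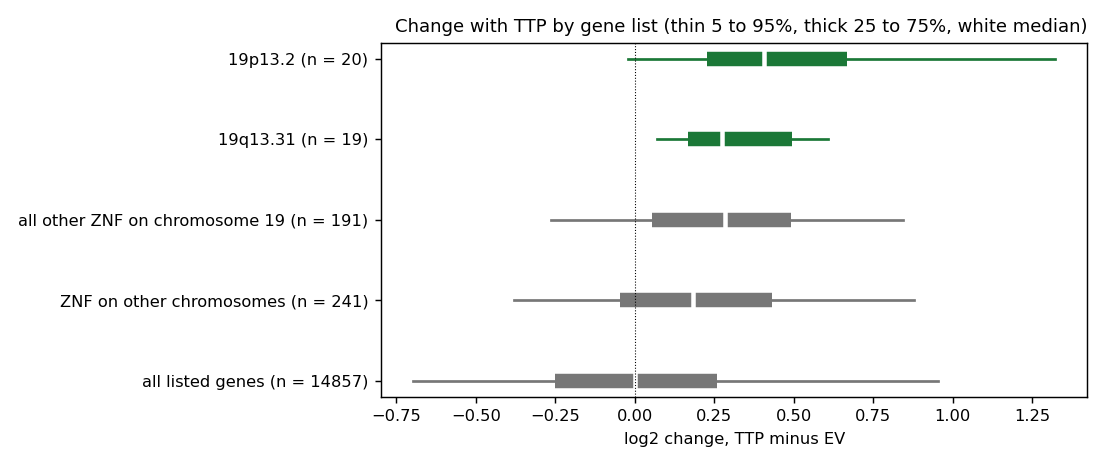
Log2 change (TTP minus EV, x axis) by gene list (y axis), with thin lines for the 5th to 95th percentile, thick bars for the 25th to 75th and a white mark for the median. The medians are 0.41 at 19p13.2 and 0.28 at 19q13.31. They are 0.28 for other ZNF symbols on chromosome 19, 0.18 for ZNF symbols elsewhere and 0.001 for all genes. The middle ranges of all 4 ZNF lists overlap.

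Genes for the proteins that act with KRAB zinc fingers were called in shares near those of all genes. Of 31 listed partners, 9 (29%) were higher and 12 (38.7%) lower, beside 35.4% and 34.6% of all genes, with a median log2 change of -0.05 and none beyond 0.5 in either direction. TRIM28 had 13590 ± 772 in TTP_H3 and 13330 ± 279 in TTP_E11, against 13470 ± 748 in EV_B and 11630 ± 152 in EV_A. Only EV_A stood apart, and the log2 change of 0.105 (adjusted p = 0.000457) came to -0.000 against EV_B alone. SETDB1 had 563.0 ± 14.2 in TTP_H3 and 540.1 ± 17.6 in TTP_E11, against 539.3 ± 38.2 in EV_B and 628.7 ± 49.8 in EV_A (log2 -0.08, adjusted p = 0.113). Those farthest from 0 were CBX3, which encodes an HP1 protein (-0.42), and EHMT2, which encodes a histone H3 lysine methyltransferase (0.35).

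TTP binds AU-rich elements with a core of UAUUUAU in 3′ untranslated regions, and the matching letters TATTTAT were counted in the annotated 3′ ends. They were present in 3 of 20 members at 19p13.2 (15.0%) and 7 of 19 at 19q13.31 (36.8%), beside 32.4% of 12605 listed genes with a coding transcript. At 19p13.2 these were ZNF441, ZNF136 and ZNF442. ZNF442, the member with the largest rise, held 4 of the 7 matches there. Overlapping matches were each counted, and several of the 4 overlap in 1 run of letters. At 19q13.31 they were ZNF45, ZNF155, ZNF230, ZNF222, ZNF223, ZNF284 and ZNF225. Per kb of 3′ end the matches numbered 0.279 at 19p13.2 and 0.341 at 19q13.31, beside 0.327 over the listed genes. By this density the clusters were close, but the value at 19p13.2 rests largely on the overlapping matches of ZNF442. For each gene 1 transcript was scanned, and some ends were short (9 bases in ZNF226, 78 in ZNF44 and 87 in ZNF433). The 25 bases around the first match are given for ZNF442 and for 4 genes of 19q13.31 in which it lies 11 to 14 bases after the end of the coding sequence, with the match in capitals.
ZNF442: ttttattttTATTTATttatttatc
ZNF155: aattgttcaTATTTATggggtacaa
ZNF222: agttatacaTATTTATggagtgtga
ZNF223: tgttgtacaTATTTATggggtacag
ZNF284: tattgtccaTATTTATgggttacag
Changes in these 4 were 0.58 in ZNF155, 0.003 in ZNF222, 0.09 in ZNF223 and 0.66 in ZNF284. Pairs of these 4 windows differed at 3 to 10 of 25 bases. ZNF222 and ZNF284 had the smallest and the largest change of the cluster, and any relation of the windows to the changes was not tested.

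Because the members are close relatives, reads may not always be assigned to the right gene. The share of a member's 50-base windows that also occur in transcripts of another annotated gene had a median of 6.67% at 19p13.2 and 5.19% at 19q13.31. It was 2.88% for ZNF442 and 11.3% for ZNF433, and high for ZNF564 (84.7%), ZNF20 (71.9%), ZNF490 (70.9%), ZNF223 (61.9%), ZNF763 (54.1%), ZNF155 (54.1%), ZNF224 (48.3%), ZNF799 (47.7%), ZNF284 (43.9%) and ZNF443 (40.2%). All of these but ZNF799 and ZNF443 shared most of them with a readthrough or clone-named gene model. ZNF799 and ZNF443 share 805 such windows with each other, among them this coding run of 174 bases, all of it identical in both genes.
ZNF799 and ZNF443: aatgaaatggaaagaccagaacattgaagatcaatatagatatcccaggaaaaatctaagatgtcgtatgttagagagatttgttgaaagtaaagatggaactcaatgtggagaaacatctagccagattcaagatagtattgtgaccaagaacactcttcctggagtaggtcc
ZNF799 had 127.2, 124.9, 103.7 and 101.1 normalized counts in TTP_H3 and 112.8, 97.11, 112.6 and 85.72 in TTP_E11, against 62.72, 81.53, 67.55 and 87.45 in EV_B and 59.1, 56.62, 45.9 and 62.13 in EV_A. EV_B and TTP_E11 overlapped and EV_A was the lowest. ZNF443 had 93.87, 100.8, 87.78 and 91.17 in TTP_H3 and 78.99, 97.11, 81.32 and 87.56 in TTP_E11, against 60.52, 80.47, 57.08 and 51.72 in EV_B and 59.1, 46.41, 54.56 and 55.03 in EV_A. Only replicate 2 of EV_B reached into the TTP range. Values of the 2 genes are thus not separate measurements where reads fall in shared stretches, and no source used here says how such reads were counted. An opposite-strand gene overlaps 7 of 20 members at 19p13.2 and 9 of 19 at 19q13.31.

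In the authors' deposited table for TTP and EV, the adjusted p was under 0.05 for 14 higher and 1 lower member at 19p13.2 and for 13 higher and 0 lower at 19q13.31, beside 4750 higher and 4710 lower of all genes in that table.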

How the data were processed

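RNA of 16 libraries was measured. The submitters' processing notes name build GRCh38, the aligner STAR 2.5.2b, the read trimmer Trimmomatic 0.36, Subread 1.5.2 with featureCounts, and DESeq2. The deposited signal values are read counts divided by a size factor per library: all values were whole multiples of the value of 1 read (tolerance 0.001 of the count). The tolerance grows with the count, so at high counts any value passes and only low counts are checked. It is also a weak check in replicates 1 and 3 of TTP_H3. The authors also deposited log2 fold changes and p-values of TTP against EV; no file header says how.

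From these values, limma 3.58.1 (trend, robust, R 4.3.3) was fitted to log2(normalized count + 1) of all 14857 genes with 4 clone groups, with Benjamini-Hochberg adjustment over all genes and a threshold of 0.05. Each adjusted p in the report is from this fit unless another tool is named. Recovered reads were tested with edgeR 4.0.16 and DESeq2 1.42.0. Tests were tried on simulated data. Positions are from GENCODE 29 (14820 of 14857 IDs), promoters from RefSeq.

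The members, gene lists and tests were chosen with earlier results of these data known. Named with values were, per cluster, the 4 members with the largest and the 4 with the smallest log2 change, the 3 with the highest level per kb of exon, the 2 that differed most between the EV clones and the 2 that differed most between the TTP clones, with ZFP36, TRIM28 and SETDB1. Other genes given with values were chosen after their values were seen. Replicate numbers did not pair the libraries, and the counts of reads per library limit low genes.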

Additional observations from a re-analysis of the deposited data

Results flagged for a closer look

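Among 92 groups of 4 libraries (23 named genes in 4 clones), 8 held a library far from the other 3 of its clone, and chance marks about 1 in 20 groups. In EV_A these were ZNF442 with 33.42 normalized counts in replicate 2, ZNF576 with 254.5 and ZNF224 with 231.6 in replicate 1, and ZNF225 with 104.9 in replicate 2, all high. In TTP_E11 they were ZNF763 with 30.41 in replicate 2 and ZNF564 with 16.98 in replicate 3, both high. ZNF564 was high in replicate 2 of TTP_H3 with 19.47, and ZNF490 was low in replicate 3 of EV_B with 6.659. ZFP36 differed between the TTP clones, with TTP_H3 minus TTP_E11 at 0.453 on the log2 scale (adjusted p = 1.71e-06, limma).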

How the results depend on the processing

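Over all alternatives, 571 values of counts and medians stayed near the main result and 32 moved. A count stayed near if it was equal or within a fixed fold of the main count. A median stayed near if it shifted by less than the SD among replicates. Counts of 0 that stayed 0 are included. For named genes, 610 values kept direction and call, while 27 turned round, 17 newly passed and 8 no longer passed. The cause was not tested. With reads summed per clone (edgeR), 4375 of all genes passed TTP against EV. Of the members, 8 were higher and 0 lower at 19p13.2, and 5 higher at 19q13.31. With EV_A alone as control, 8 members were higher at 19q13.31, the median there was 0.206, and ZNF490 (-0.045), ZNF223 (-0.167) and ZNF224 (-0.183) turned round. With EV_B alone, 0 members were lower at 19p13.2, the medians were 0.488 at 19p13.2 and 0.374 at 19q13.31, and ZNF700 (0.027), ZNF20 (-0.036), SETDB1 (0.034) and TRIM28 (-0.000) turned round. ZNF700 was 0.033 with upper-quartile scaling, under which the median change of all genes was 0.042. Between the EV clones, 1 member was higher at 19p13.2 by DESeq2, by edgeR, with genes of mean 50 or more and without both libraries that stood apart, and the median at 19q13.31 was -0.091 with genes of mean 50 or more. Without both libraries, 1 member at 19p13.2 and 2 at 19q13.31 were lower in TTP_H3 than in TTP_E11, and ZNF222 was -0.068.

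When each library was left out in turn, members higher in EV_B than in EV_A numbered 0 to 2 at 19p13.2 and 0 to 1 at 19q13.31, and those lower 1 to 2 and 1 to 5. Members lower in TTP_H3 than in TTP_E11 at 19q13.31 numbered 0 to 1, with 1 without replicate 3 of TTP_H3 and without replicate 4 of TTP_E11. ZNF700 ran between -0.027 and 0.009, ZNF222 between -0.049 and 0.1, and ZNF223 between -0.020 and 0.182.

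Libraries of the same replicate number were not paired: their deviations correlated at -0.059 to 0.061, and 5 of 16 libraries correlated best with their own number. With the replicate number as a block, 10354 genes passed TTP against EV, with 14 members higher and 1 lower at 19p13.2 and 13 higher and 0 lower at 19q13.31.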
